A study of Homo sapiens with 4 samples.

Results

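The 54 genes described here encode the machinery of DNA replication and the enzymes that supply its nucleotides. They are given by a list of names, a rule that uses no measured value, and all 54 were among the 17687 genes measured. The list was, however, chosen with earlier results of these data known. RNA came from KGN cells, a human granulosa cell line derived from a granulosa cell tumour, hybridised to Clariom S Human arrays. Each of the 4 groups was 1 array: control siRNA at 10 nM (siNC), siRNAs against YAP and TAZ at 5 nM each (siYT), and either siRNA followed by 8Br-cAMP (siNC+8Br-cAMP and siYT+8Br-cAMP). All cells were transfected, and 48 h later the medium was changed for medium with 0.5 mM 8Br-cAMP, a cyclic AMP analogue that enters cells, or without it, and the cells were kept for another 24 h. No untransfected culture is among the groups, the cells are a single tumour-derived line, and no group had a replicate.

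A cell copies its genome in ordered steps. In G1 the origin recognition complex (ORC), CDC6 and CDT1 load the MCM2-7 ring onto DNA, which licenses an origin, and geminin later blocks reloading. In S phase the kinase CDC7-DBF4 turns the ring into an active helicase with CDC45 and the GINS complex, polymerase alpha-primase lays down primers, and polymerases delta and epsilon extend them on the PCNA clamp. Ribonucleotide reductase, thymidylate synthase and thymidine kinase supply deoxynucleotides. Many of these genes are transcribed at the G1/S boundary by E2F factors, and YAP and TAZ, which an active Hippo pathway holds out of the nucleus, are known to promote proliferation.

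Because E2F is a textbook regulator of many members, their promoters are shown first, from RefSeq on GRCh38.p14, each with 250 bases before and 50 after the annotated start. The table held promoters for 48 of the 54 members, 65 in all, and none for MCM4, MCM5, GINS4, POLD3, RPA2 and RPA3. An E2F match was an exact copy, on either strand, of TTTCCCGC, TTTGGCGC, TTTCGCGC or TTTGCCGC. Capitals below mark E2F matches, or their reverse complements, and the CCAAT box (CCAAT, or ATTGG on the other strand). CDC6, MCM3, PCNA and TYMS are shown because they carry an E2F match and were lower after siYT in both media. RRM2, the member with the largest siRNA difference, has CCAAT boxes and no E2F match in this window, and ORC3 has an E2F match but was not called.
CDC6, chr17:40287629-40287928, plus strand: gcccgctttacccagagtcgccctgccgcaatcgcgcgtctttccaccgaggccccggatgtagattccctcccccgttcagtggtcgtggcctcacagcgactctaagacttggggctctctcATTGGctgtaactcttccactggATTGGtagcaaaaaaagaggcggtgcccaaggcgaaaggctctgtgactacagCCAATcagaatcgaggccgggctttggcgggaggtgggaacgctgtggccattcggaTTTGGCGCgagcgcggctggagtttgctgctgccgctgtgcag
MCM3, chr6:52284693-52284992, minus strand: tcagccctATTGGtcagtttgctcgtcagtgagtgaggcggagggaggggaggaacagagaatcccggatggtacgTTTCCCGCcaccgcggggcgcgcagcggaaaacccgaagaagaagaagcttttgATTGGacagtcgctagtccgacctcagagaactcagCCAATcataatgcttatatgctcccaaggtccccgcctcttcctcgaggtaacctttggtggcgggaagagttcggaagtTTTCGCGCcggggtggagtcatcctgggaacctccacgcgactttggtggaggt
PCNA, chr20:5126573-5126872, minus strand: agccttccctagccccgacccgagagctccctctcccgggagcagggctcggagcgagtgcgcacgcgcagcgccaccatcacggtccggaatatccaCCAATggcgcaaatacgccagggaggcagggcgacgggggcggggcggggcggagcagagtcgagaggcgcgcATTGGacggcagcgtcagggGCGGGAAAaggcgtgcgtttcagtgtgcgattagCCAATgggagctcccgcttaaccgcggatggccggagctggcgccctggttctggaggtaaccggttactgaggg
TYMS, chr18:657403-657702, plus strand: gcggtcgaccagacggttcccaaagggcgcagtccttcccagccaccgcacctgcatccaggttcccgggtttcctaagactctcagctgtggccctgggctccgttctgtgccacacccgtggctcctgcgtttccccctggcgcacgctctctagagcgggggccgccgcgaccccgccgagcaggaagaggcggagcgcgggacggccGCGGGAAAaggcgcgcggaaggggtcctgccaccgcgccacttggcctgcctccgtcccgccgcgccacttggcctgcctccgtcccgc
RRM2, chr2:10122489-10122788, plus strand: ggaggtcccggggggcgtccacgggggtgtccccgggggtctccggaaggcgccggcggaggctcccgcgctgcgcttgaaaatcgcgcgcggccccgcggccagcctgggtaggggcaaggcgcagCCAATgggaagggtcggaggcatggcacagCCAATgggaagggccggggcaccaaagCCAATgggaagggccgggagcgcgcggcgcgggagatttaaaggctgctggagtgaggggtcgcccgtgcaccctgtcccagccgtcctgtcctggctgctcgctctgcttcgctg
ORC3, chr6:87589885-87590184, plus strand: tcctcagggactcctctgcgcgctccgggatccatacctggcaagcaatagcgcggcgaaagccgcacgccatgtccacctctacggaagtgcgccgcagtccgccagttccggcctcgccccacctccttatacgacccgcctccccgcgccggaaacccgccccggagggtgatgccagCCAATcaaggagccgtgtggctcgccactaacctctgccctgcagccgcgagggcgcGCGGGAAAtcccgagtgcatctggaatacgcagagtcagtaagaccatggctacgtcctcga

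An E2F match was present in 24 of the 48 members (50%), compared with 762 of 14250 measured genes with a promoter in the table (5.35%). By promoter, 25 of 65 member promoters (38.5%) and 3.31% of all 35116 promoters of this length held a match. Of the 33 matches in member promoters, 26 began between 100 bases before and 50 bases after the start, with a median first base at -35. Among them 6 overlapped another E2F match, as in MCM2 and MCM6, and 1 overlapped a CCAAT box. The members' promoters had a median of 65.67% G and C and 30 CpG dinucleotides, against 62.67% and 21 for the measured genes and 65.67% and 28 for measured genes with an E2F match. Base composition thus moved with the match, and its part in the share was not tested.

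The helicase and its activators held E2F matches in 9 of 12 members with a promoter, licensing genes in 4 of 9, polymerases and primase in 4 of 8, the clamp and ligation genes in 3 of 9, nucleotide supply in 2 of 6, and the chromatin genes in 2 of 4. The CCAAT box was found in 28 of 48 members (58.3%) and in 42.3% of measured genes (34.6% of all promoters). The letters GGAATG, a TEAD site, were found in 9 members (18.8%) and 15.6% of measured genes (14.0% of all promoters). The cyclic AMP response element TGACGTCA was found in 3 members (6.25%) and 3.05% of measured genes (1.85% of all promoters). TTTGAA, the core of the CHR element of mitotic genes, was found in 3 members (6.25%) and 15.9% of measured genes (15.2% of all promoters). All motifs were searched on both strands, and a match is a run of letters and not evidence of binding.

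**Figure D1:**
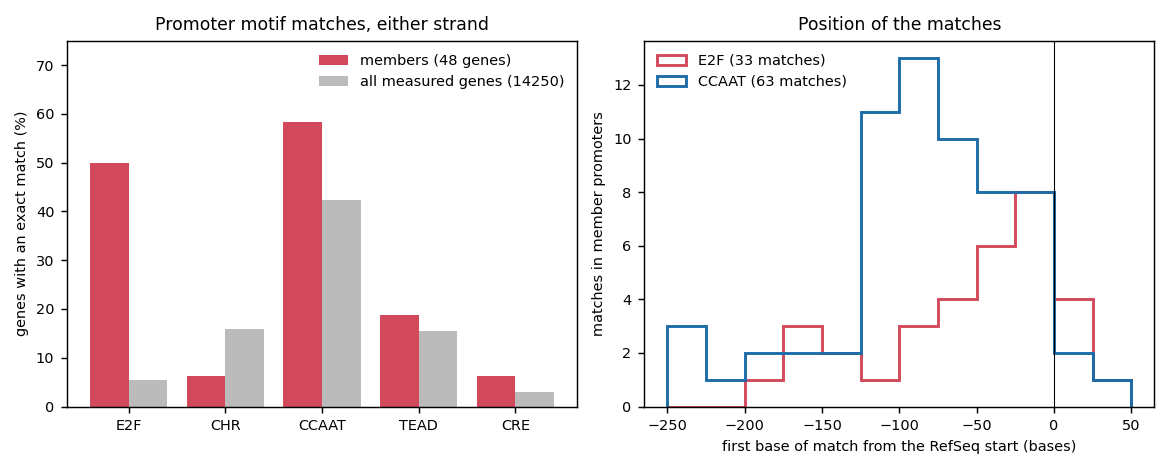
Left, the percent of genes with at least 1 exact match in a 300-base RefSeq promoter, for the 48 members with a promoter (red) and the 14250 measured genes (grey); E2F is at 50% and 5.35%. Right, the number of E2F and CCAAT matches in the 65 member promoters by distance of the first base from the annotated start, in bins of equal width; the 33 E2F matches have a median at -35.

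Values below are deposited log2 signals, and where 4 values are given they follow the order siNC, siYT, then the same pair with 8Br-cAMP. Array medians over all genes lay between 6.19 and 6.24, and a level filter was set at 6.22, the median of all gene values over the 4 arrays. With 1 array per group, a gene was called by size alone, without a p-value, when the arrays differed by at least 1 on the log2 scale (2-fold) and the higher of them reached the filter; "in both media" means a difference of at least 1 in the same direction in each, with the highest of the 4 arrays at the filter. The 95th percentile of the negative control probe sets was 6.94 for siNC, 7.29 for siYT, 6.53 for siNC+8Br-cAMP and 6.98 for siYT+8Br-cAMP, and where the lower array of a pair was under it a fold is given as a lower bound against that percentile ("at least"). The words fell and rose are kept for genes that also passed an additive limma fit across all genes (siRNA and 8Br-cAMP as terms, 1 residual degree of freedom, Benjamini-Hochberg adjusted p under 0.05), which is secondary because its error is not a spread between cultures. Of the siRNA targets, YAP1 had siYT minus siNC differences of -2.69 without and -3.17 with 8Br-cAMP, and WWTR1, which encodes TAZ, of -2.13 and -3.79. Of 12 granulosa markers 8 reached the filter on at least 1 array, while FOXL2, INHA, AMHR2 and HSD17B1 were under it on all 4. Theca and stroma markers reached it in 3 of 6 cases (PDGFRA, ACTA2 and COL1A1), immune, endothelial and epithelial markers in 1 of 4 each (CD68, KDR and KRT7), and germ cell markers in 0 of 4. Several of these markers moved with siYT: the granulosa genes CYP19A1 (9.23 without and 3.29 with 8Br-cAMP), CYP11A1 (4.56 and 3.91) and FSHR (2.49 and 2.40, under the negative control percentile on all 4 arrays) rose, and PDGFRA was higher without 8Br-cAMP (2.54, and 0.06 with it) without passing limma (adjusted p = 0.147); their part in the members' differences was not tested. CD68, a lysosomal protein used as a macrophage marker, rose with siYT (1.92 and 2.82), while the immune markers PTPRC, CD3E and LYZ were under the filter on all 4 arrays. The 2197 positive control probe sets had a median siRNA difference of -0.36 without and -0.35 with 8Br-cAMP, against 0.02 and 0.06 for all genes.

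After YAP/TAZ siRNA most replication genes were lower, and the differences were largest for RRM2, TYMS and CDC6, which act in deoxynucleotide supply, thymidylate synthesis and origin licensing. Without 8Br-cAMP, 35 of 54 members were called lower after siYT (7.32% of all genes were), and 32 with 8Br-cAMP (5.94% of all genes). In both media 31 were called lower, 0 higher and 23 were not called, while 3.89% of all genes were lower and 3.44% higher in both. The median member difference was -1.93 without and -1.50 with 8Br-cAMP, against 0.02 and 0.06 over all genes. In 25 of the 31 a siYT value lay under its array's negative control percentile, and with all such values set to that percentile the members' medians were -0.98 and -0.51. The sign was negative in both media for 51 of 54; the exceptions were POLD3, DUT and RPA1.

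The additive limma fit called 34 members that fell for the siRNA (4.67% of all genes fell, 4.30% rose) and 0 that rose. These were the 31 members called in both media and MCM2, MCM10 and GINS4. After 32 was added to the linear values before taking log2, limma called 0 of 17687 genes (42 members lower and 3964 genes in either direction at an unadjusted p under 0.05), so these calls hold on the deposited scale and not on that scale. When the arrays were shifted to a common positive control median, which moved the median siRNA difference of all genes by 0.41 without and 0.38 with 8Br-cAMP, 27 members were lower in both media; the call with 8Br-cAMP ended for MCM6, DBF4, PRIM1, PRIM2, POLE2, RFC2 and FEN1 and the call without it for POLD2. In bulk RNA fewer cells in S phase and less RNA per cell cannot be told apart.

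**Figure D2:**
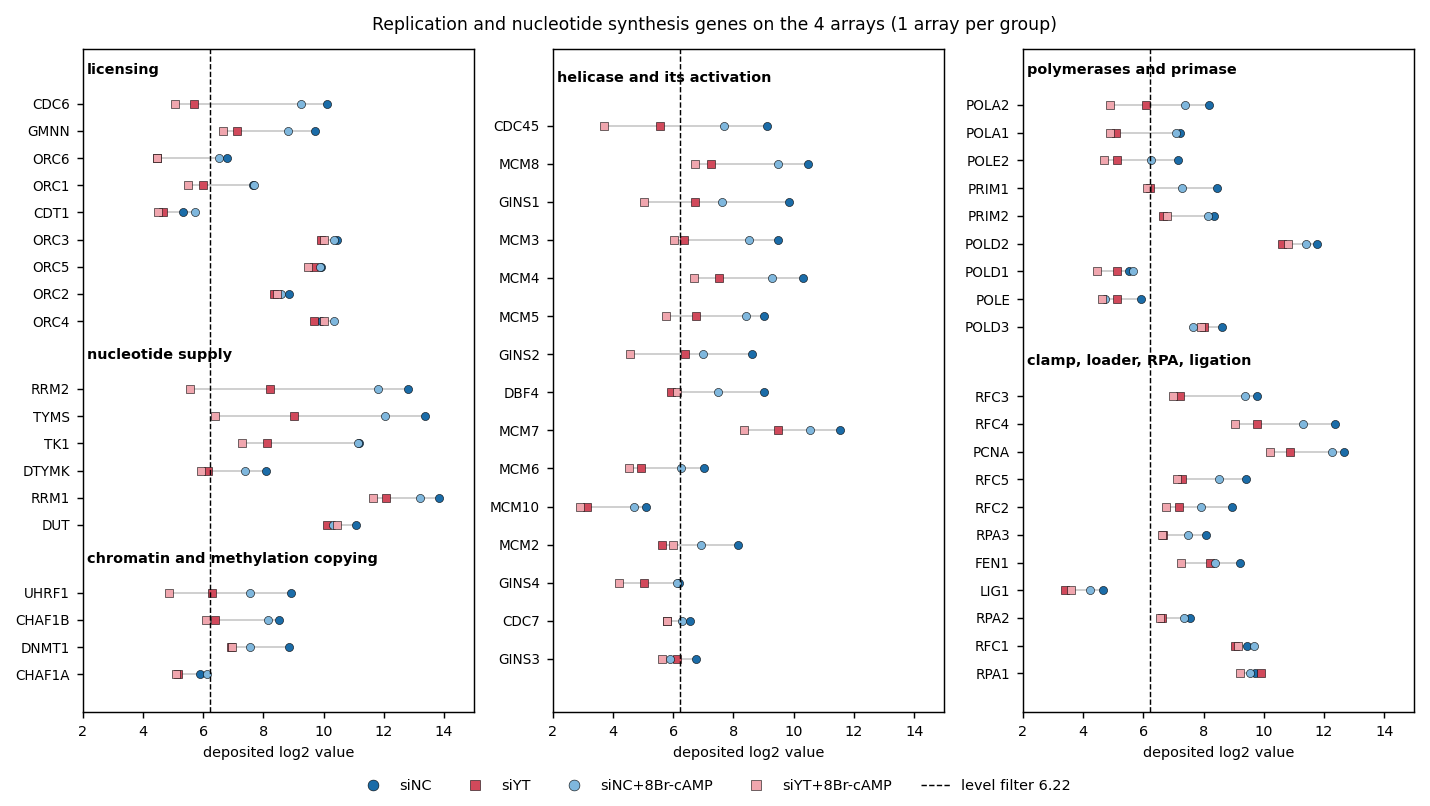
Deposited log2 value (x axis) of each of the 54 genes on the 4 arrays, grouped by step and ordered by mean siRNA difference; circles are siNC, squares siYT, lighter symbols the arrays with 8Br-cAMP, and the dashed line the level filter of 6.22. There is 1 array per group and no error bar; the squares lie left of both circles for most genes, with the widest gaps at RRM2, TYMS and CDC6. Positions of different genes are not comparable as levels, since each is read by its own probes.

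By deposited values, origin licensing showed a split within its complex. CDC6, the ATPase that brings the MCM ring to ORC, was 10.10 with siNC and 5.71 with siYT, and 9.23 and 5.06 when 8Br-cAMP was added. Both siYT arrays were low and under the filter, and CDC6 fell with a mean difference of -4.28 (SE 0.308, limma adjusted p = 8.46e-05), at least 6.99-fold without and at least 4.78-fold with 8Br-cAMP. GMNN, which encodes geminin, was at 9.71, 7.13, 8.80 and 6.67 in the same order of arrays and fell by 2.36 on average (adjusted p = 0.00136). The inhibitor of licensing and its loader were thus both lower after siYT.

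ORC1, the largest ORC subunit, was 7.67 with siNC and 5.99 with siYT, and 7.68 and 5.51 when 8Br-cAMP was added. ORC6, the smallest, was at 6.78, 4.48, 6.53 and 4.48. Both fell, with siRNA differences of -1.68 and -2.17 for ORC1 and -2.30 and -2.05 for ORC6, and with the siYT arrays under the filter and the siNC arrays above it. ORC6 was under the negative control percentile on all 4 arrays and has no bound. As bounds, ORC1 was at least 1.30-fold lower without and at least 1.63-fold lower with 8Br-cAMP. The gap to the other subunits thus rests largely on values under that level. The other 4 subunits, ORC2, ORC3, ORC4 and ORC5, were above the filter on all arrays and had siRNA differences between -0.52 and -0.16, none of them called; after the positive control shift ORC4 and ORC5 without, and ORC2, ORC3 and ORC4 with 8Br-cAMP, were above 0. ORC4, with the smallest mean siRNA difference of the step, was at 9.90, 9.69, 10.36 and 10.02. CDT1, which acts with CDC6 to load the ring, stayed under the filter on all arrays, with differences of -0.64 and -1.22.

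Most genes of the replicative helicase and its activation fell. The 15 genes had median differences of -2.26 and -2.21. Of them 10 were called lower in both media (3.89% of all genes) and 13 fell in the limma fit (4.67%). The 6 subunits of the MCM2-7 ring all fell, and MCM3, MCM4, MCM5, MCM6 and MCM7 were called lower in both media. MCM3 was 9.49 with siNC and 6.35 with siYT, and 8.51 and 6.01 when 8Br-cAMP was added, at least 4.57-fold and at least 2.89-fold lower after siYT. The differences were -2.79 and -2.59 for MCM4, -2.26 and -2.66 for MCM5, -2.09 and -1.73 for MCM6, and -2.06 and -2.21 for MCM7. MCM6 has no bound in either medium, since its siNC values did not exceed the negative control percentiles of the siYT arrays. MCM2 was called by size without 8Br-cAMP (-2.51) and not with it (-0.93).

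CDC45, which joins MCM and GINS in the moving helicase, was 9.11 with siNC and 5.57 with siYT, and 7.67 and 3.72 when 8Br-cAMP was added. It was low on both siYT arrays and fell with a mean difference of -3.75 (SE 0.313, adjusted p = 9.51e-05). GINS1, a subunit of the GINS complex, was at 9.86, 6.74, 7.63 and 5.02, and GINS2 at 8.62, 6.41, 6.97 and 4.57. Both fell for the siRNA, with mean differences of -2.87 and -2.31. GINS1 was at least 5.92-fold lower without and at least 1.58-fold lower with 8Br-cAMP. GINS2 was at least 2.51-fold lower without 8Br-cAMP and has no bound with it. GINS3 was at 6.76, 6.12, 5.89 and 5.62, with differences of -0.64 and -0.27 that were not called. With 8Br-cAMP its difference lay above 0 after the positive control shift. All 4 GINS3 values were under the negative control percentiles, so a decrease could not be read. GINS4, under the filter on all arrays, fell by 1.54 on average.

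MCM8, a relative of the ring subunits that works in recombination with MCM9, was 10.47 with siNC and 7.26 with siYT, and 9.48 and 6.73 when 8Br-cAMP was added, at least 9.04-fold and at least 5.66-fold lower. It fell, and all 4 values were above the level filter. MCM10, needed for helicase activation, fell by 1.88 on average but stayed under the filter on all arrays. DBF4, the activating subunit of the CDC7 kinase, was at 9.01, 5.94, 7.48 and 6.13, and it fell by 2.21 on average. It was at least 3.28-fold lower without and at least 1.42-fold lower with 8Br-cAMP. The catalytic subunit CDC7 differed by -0.75 and -0.52 and was not called. CDC7 lay under the negative control percentile on all 4 arrays, so a decrease could not be read.

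**Figure D3:**
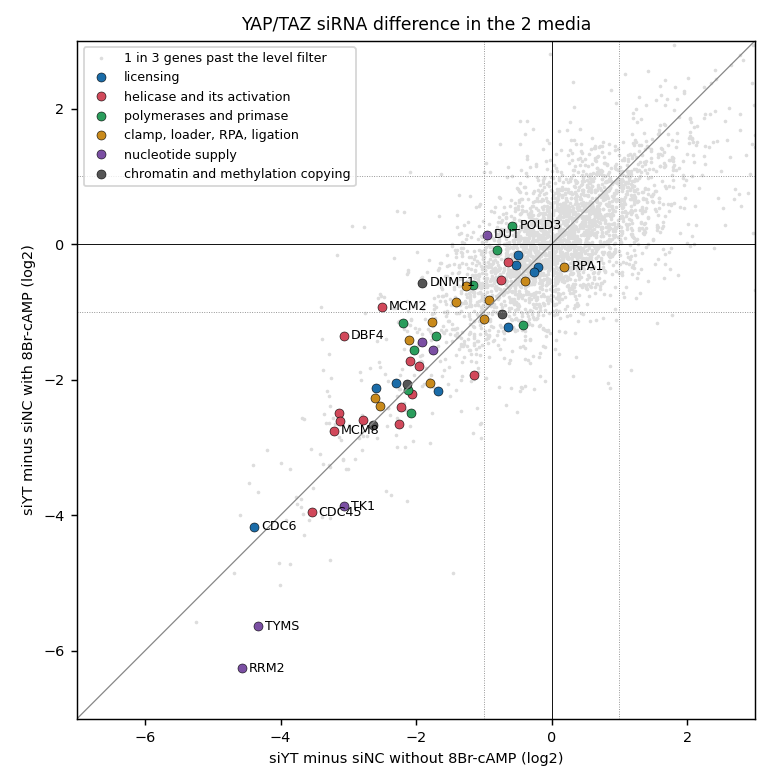
Difference between siYT and siNC (log2) without 8Br-cAMP on the x axis and with it on the y axis; coloured points are the 54 members by step, grey points a regular subset of the genes past the level filter, the solid line marks equal differences and dotted lines a difference of 1. Most members lie in the lower left, with RRM2 at -4.57 and -6.26, and DUT and POLD3 lie above 0 with 8Br-cAMP.

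By deposited values, priming and elongation polymerases differed from each other. POLA1, POLA2, PRIM1 and PRIM2, the 4 subunits of polymerase alpha-primase, were all called lower in both media and all fell. POLA2 was 8.18 with siNC and 6.11 with siYT, and 7.38 and 4.88 when 8Br-cAMP was added. POLA1, the catalytic subunit, was at 7.22, 5.10, 7.07 and 4.91, and PRIM1, the catalytic primase subunit, at 8.43, 6.23, 7.30 and 6.13. In each of these 3 genes both siYT arrays lay under both siNC arrays. POLA1 has no bound without 8Br-cAMP and was at least 1.07-fold lower with it. The bounds without and with 8Br-cAMP were 1.845-fold and 1.32-fold for POLA2 and 2.20-fold and 1.25-fold for PRIM1. For PRIM2 they were 2.07-fold and 2.24-fold.

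Of the 3 listed subunits of polymerase delta, which copies the lagging strand, none was called in both media and none fell. POLD2 lay above the negative control percentiles on all arrays and was 2.24-fold lower without and 1.525-fold lower with 8Br-cAMP. The gap between POLD2 and polymerase alpha-primase thus rests largely on values under those percentiles. POLD2 differed by -1.16 and -0.61, POLD1 by -0.42 and -1.19 under the filter on all arrays, and POLD3 was at 8.60, 8.02, 7.65 and 7.92, so that its siYT value was the higher of the pair with 8Br-cAMP. POLE2, a subunit of the leading-strand polymerase epsilon, was at 7.16, 5.13, 6.26 and 4.70 and fell by 1.80 on average. It has no bound in either medium. The catalytic subunit POLE, under the filter on all arrays, differed by -0.80 and -0.09, the second above 0 after the positive control shift. Being under the filter, neither POLD1 nor POLE could be called by size.

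The clamp and 4 of the 5 clamp loader subunits fell, and no subunit of the single-strand binding protein did. PCNA, the sliding clamp, was 12.67 with siNC and 10.87 with siYT, and 12.28 and 10.22 when 8Br-cAMP was added, and fell by 1.92 on average (adjusted p = 0.00384). Both siYT arrays were the low pair, 3.47-fold and 4.16-fold lower, and all 4 values were above the filter. Of the clamp loader, RFC2, RFC3, RFC4 and RFC5 were called lower in both media and fell, whereas RFC1, the large subunit, differed by -0.39 and -0.55 and was not called, and lay above 0 without 8Br-cAMP after the positive control shift. RFC3 was at 9.76, 7.23, 9.36 and 6.98, RFC4 at 12.36, 9.76, 11.31 and 9.04, and RFC5 at 9.41, 7.30, 8.53 and 7.11.

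RPA1, the large subunit of the complex that coats single-stranded DNA, was at 9.72, 9.91, 9.53 and 9.19, with siRNA differences of 0.19 and -0.34; both were above 0 after the positive control shift. RPA2 differed by -0.92 and -0.82, and RPA3 by -1.41 and -0.86; RPA3 was called without 8Br-cAMP and did not pass limma (adjusted p = 0.0530). FEN1, the flap nuclease of Okazaki fragments, differed by -0.999 and -1.10 and was called with 8Br-cAMP. Its difference without 8Br-cAMP was just under the threshold. LIG1, the ligase that joins the fragments, was under the filter on all arrays and differed by -1.27 and -0.62.

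Nucleotide supply held the 2 genes with the largest mean siRNA differences of the list, RRM2 and TYMS. RRM2, the small subunit of ribonucleotide reductase that is made in S phase, was 12.79 with siNC and 8.21 with siYT, and 11.82 and 5.56 when 8Br-cAMP was added. It fell with a mean difference of -5.42 (SE 0.404, adjusted p = 8.46e-05), 23.8-fold without and at least 28.7-fold with 8Br-cAMP. TYMS, which makes thymidylate from dUMP, was at 13.35, 9.02, 12.02 and 6.38 and fell 20.1-fold without and at least 33.1-fold with 8Br-cAMP. TK1, the cytosolic thymidine kinase of S phase, was at 11.19, 8.13, 11.16 and 7.29 and fell by 3.46 on average (adjusted p = 0.000183).

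DTYMK, the next kinase in thymidylate use, was at 8.08, 6.18, 7.38 and 5.93 and fell by 1.68 on average. RRM1, the large reductase subunit, differed by -1.76 and -1.56 and fell too, so that within the reductase the small subunit RRM2 had the larger difference in both media. DUT, which removes dUTP, was at 11.07, 10.11, 10.30 and 10.44. Its siYT array was the lowest of the 4 and siNC the highest, with differences of -0.95 and 0.14, and it was not called for the siRNA.

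Other enzymes of nucleotide supply, among them RRM2B, TK2 and salvage enzymes, were listed beside these. Of these 10 genes, 0 were called lower and 1 higher in both media, and their medians were -0.09 and -0.15. Over all genes 3.89% were lower and 3.44% higher in both, and 10 genes are too few to set these counts apart from those shares. Without 8Br-cAMP 1 was called lower and 2 higher (1294 and 1345 of 17687 genes). With it 0 were lower and 1 higher (1051 and 977). RRM2B, the small reductase subunit induced by p53, was 10.36 with siNC and 11.92 with siYT, and 11.13 and 11.33 when 8Br-cAMP was added, 1.56 higher after siYT without and 0.20 higher with 8Br-cAMP, and it did not pass limma (adjusted p = 0.195). TK2, the mitochondrial thymidine kinase, was at 7.31, 8.55, 7.52 and 8.74 and rose by 1.23 on average (adjusted p = 0.0327), opposite in sign to TK1. DCK, a salvage kinase, differed by -1.65 and -0.29, and NT5C, a nucleotidase, by -0.89 on average; neither passed limma.

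**Figure D4:**
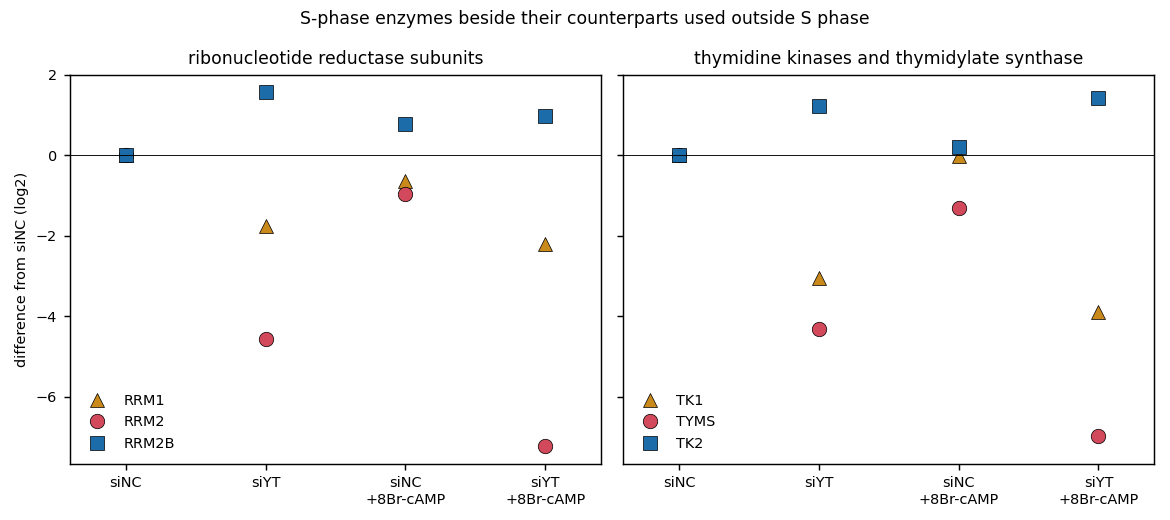
Difference of each array from siNC (log2, y axis) for ribonucleotide reductase subunits on the left and thymidylate enzymes on the right, 1 array per point. RRM2 and TYMS reach -7.23 and -6.97 in siYT+8Br-cAMP, where both lie under the negative control percentile of that array, while RRM2B and TK2 lie above 0 on all 3 other arrays.

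Of the 19 measured genes of de novo purine and pyrimidine synthesis and the folate cycle, 13 were called lower without 8Br-cAMP (7.32% of all genes). With it 7 were called lower (5.94%), 7 were in both media (3.89%), and 9 fell (4.67%). CTPS1, which makes CTP, differed by -3.66 and -2.58, and PAICS, a purine enzyme, by -2.36 and -2.56. MTHFD2, a mitochondrial folate enzyme, differed by -1.76 and -2.50, and SHMT2, which feeds that pathway, by -1.80 and -1.98. All 4 fell. SHMT1 was not analysed here. Among 19 fork accessory and origin firing genes, 6 were called lower in both media (3.89% of all genes) and 7 fell (4.67%). Leading by deposited values were CLSPN, the claspin adaptor of the checkpoint at forks (-3.37 and -3.24), and WDHD1, which ties polymerase alpha to the helicase (-1.94 and -2.82). RNASEH2A, which removes RNA from DNA (-2.41 and -2.02), and TIMELESS, a fork protection protein (-2.54 and -1.81), followed. TIMELESS lay under the negative control percentile on all 4 arrays and has no bound. WDHD1 has no bound with 8Br-cAMP. The siYT values of CLSPN and WDHD1 were under it in both media, and that of RNASEH2A only with 8Br-cAMP.

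The genes that copy chromatin states behind the fork followed in part. UHRF1, which reads hemimethylated DNA, was 8.92 with siNC and 6.28 with siYT, and 7.56 and 4.88 when 8Br-cAMP was added and fell by 2.65 on average. CHAF1B, a subunit of the histone chaperone CAF-1, was at 8.53, 6.40, 8.16 and 6.09 and fell by 2.10. CHAF1A, its large subunit, was at 5.91, 5.17, 6.12 and 5.09, under the filter throughout. DNMT1, the maintenance methyltransferase that UHRF1 recruits, was at 8.84, 6.94, 7.54 and 6.97: called lower without 8Br-cAMP (-1.91), at -0.57 with it, and not passing limma (adjusted p = 0.0677).

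Members with an E2F match had median siRNA differences of -2.08 and -2.09, and 15 of 24 were called lower in both media; those without a match had medians of -1.76 and -1.36, and 14 of 24 were called. The promoters printed above show both cases, since RRM2 lacks the letters and ORC3 holds them. Only exact copies of the given letters were searched, so a gene without a match can hold another form of the site. Among measured genes that are no members, 57 of 738 with a match (7.72%) and 481 of 13464 without (3.57%) were called lower in both media.

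The second comparison concerns 8Br-cAMP, and it shares the siNC array, or the siYT array, with the siRNA comparison. After siNC, 12 of 54 members were called lower with 8Br-cAMP (3.74% of all genes) and 0 higher, with a median of -0.72: MCM2, MCM4, DBF4, CDC45, GINS1, GINS2, PRIM1, RFC2, RFC4, TYMS, UHRF1 and DNMT1. After siYT, 6 were called lower (4.15% of all genes) and 0 higher, with a median of -0.36: MCM7, GINS1, GINS2, RRM2, TYMS and UHRF1. The median over all genes was -0.03 and -0.02. Differences of at least 1 after both siRNAs were found for 5 members (1.31% of all genes): CDC45, GINS1, GINS2, TYMS and UHRF1. For CDC45, GINS1, GINS2 and UHRF1 both siYT arrays lay under their negative control percentiles, so the difference after siYT has no bound. For TYMS it was at least 2.05 in size. The limma fit called CDC45, GINS1, GINS2 and TYMS as fallen for 8Br-cAMP, 4 of 54 (0.662% of all genes). With 32 added to the linear values limma called 0 (18 members at an unadjusted p under 0.05), and with the filter at the negative controls' 95th percentile of 6.95 the count after siYT was 3 (3.61% of all genes), a share near the background.

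GINS1 had the largest 8Br-cAMP difference after siNC, -2.23 (4.68-fold lower), and -1.72 after siYT; it fell by 1.97 on average (SE 0.316, adjusted p = 0.0117). GINS2 differed by -1.65 and -1.83, CDC45 by -1.44 and -1.85 and UHRF1 by -1.36 and -1.40, the last without passing limma (adjusted p = 0.0537). CDC45 was under the filter on both siYT arrays, so it was not called after siYT alone. After siYT the differences of GINS1, GINS2, CDC45 and UHRF1 lie between values under the negative control percentiles. Of the 9 licensing genes 0 were called lower for 8Br-cAMP after siNC (3.74% of all genes) and 0 after siYT (4.15%), near the background. The number called higher was 0 after either siRNA. GMNN (-0.909) and CDC6 (-0.866) were just under the threshold after siNC, while ORC1 was at 0.01. TK1, of nucleotide supply, differed by -0.03 after siNC and -0.835 after siYT. Setting siYT+8Br-cAMP against siNC, TYMS was at least 83.0-fold lower, RRM2 at least 56.1-fold, CDC6 at least 8.71-fold, GINS1 at least 7.38-fold and CDC45 at least 4.39-fold; as bounds these have no order.

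**Figure D5:**
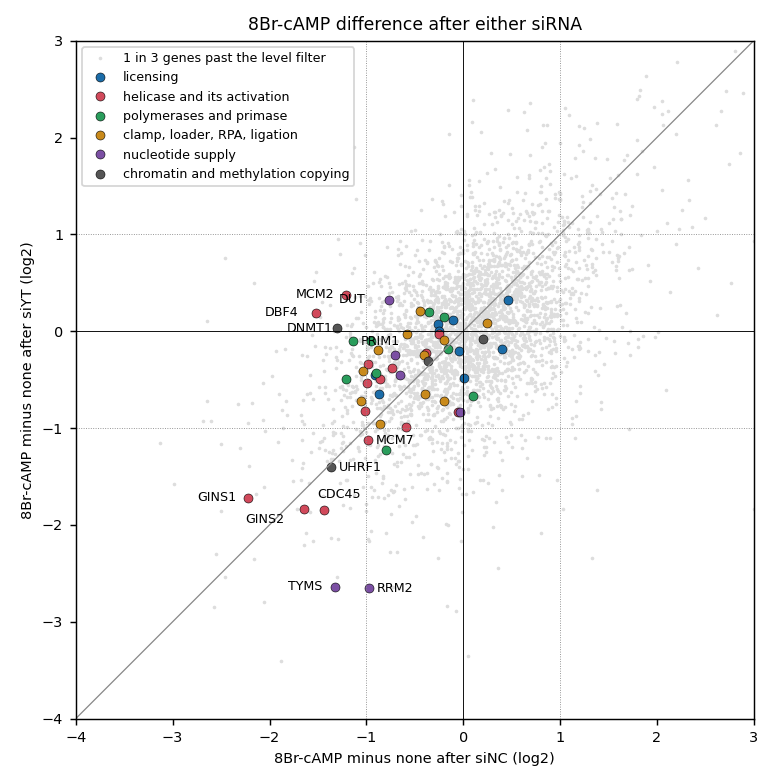
Difference between 8Br-cAMP and no 8Br-cAMP (log2) after siNC on the x axis and after siYT on the y axis, with members coloured by step and a regular subset of the genes past the level filter in grey; the solid line marks equal differences. GINS1, GINS2, CDC45, UHRF1 and TYMS lie under -1 on both axes, RRM2 is at -0.97 and -2.65, and MCM2, DBF4, DNMT1 and DUT are negative on the x axis only. On the y axis GINS1, GINS2, CDC45, UHRF1, MCM2, DBF4 and DNMT1 rest on values under the negative control percentiles.

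The difference of differences subtracts the 8Br-cAMP difference found with siNC from that found with siYT. Of the members, 7 were called by it. It was lower for RRM2 (-1.68) and TYMS (-1.31), while 4.82% of all genes were called lower, and higher for DBF4 (1.71), MCM2 (1.58), DNMT1 (1.34), DUT (1.09) and PRIM1 (1.03), while 3.57% of all genes were called higher. The count of 2 of 54 is near its background and that of 5 of 54 above it, with no test. For DBF4, MCM2, DNMT1 and PRIM1 both siYT arrays lay under their negative control percentiles, where a further decrease cannot be read. DUT lay above them on all arrays. RRM2 differed by -0.97 with 8Br-cAMP after siNC and by -2.65 after siYT, and TYMS by -1.33 and -2.64. Both siYT+8Br-cAMP values lay under the negative controls' 95th percentile, which bounds the difference after siYT at 1.24 or more in size for RRM2 and 2.05 or more for TYMS, so a difference of differences of 1 rests on values under that level. In the other direction MCM2 was 8.14 with siNC and 5.63 with siYT, and 6.93 and 6.01 when 8Br-cAMP was added. Its 8Br-cAMP difference was -1.20 after siNC and 0.38 after siYT, where both values lay under the filter. DBF4 had 8Br-cAMP differences of -1.52 and 0.19.

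The siRNA differences without and with 8Br-cAMP come from separate arrays; across the 54 members they correlated with r = 0.875 (rho = 0.856), and across the 9750 genes past the filter with r = 0.734 (rho = 0.664). The 8Br-cAMP differences after the 2 siRNAs correlated with r = 0.472 (rho = 0.373) across members and r = 0.560 (rho = 0.473) across the 9750 genes. These are descriptions across genes of the same arrays, and genes are not independent replicates.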

How the data were processed

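RNA from 4 cultures was measured on 1 array each. The authors used RMA in Affymetrix software (Expression Console), per the labels' protocols, to make the deposited log2 values; RMA corrects background, equalises the arrays' distributions and summarises each probe set. The sources used here give no version. Values ran from 1.39 to 19.36. Some exceed 16, the log2 of a 16-bit scanner's maximum, so a further rescaling is possible and folds are in deposited units.

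Of 24351 probe sets, 17709 named exactly 1 gene and were averaged per gene to 17687 genes; each member had 1 probe set. DONSON, SHMT1 and POLM were not analysed here. The additive fit used limma 3.58.1 in R 4.3.3 on all genes (9.24 prior degrees of freedom, median moderated SD 0.314) and was tested on simulated data. Promoters came from RefSeq. Values on all 4 arrays are given for the 4 members of each step with the largest and the 1 with the smallest absolute mean siRNA difference, and for members called for 8Br-cAMP after both siRNAs or by the difference of differences; other lists are given by up to 4 genes with the largest mean difference, and RRM2B. The members and lists were chosen with earlier results of these data known. Alternatives covered the level filter, the fold threshold, array scaling, the log scale and limma's settings.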

Additional observations from a re-analysis of the deposited data

Results flagged for a closer look

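For 4 members whose difference of differences was at least 1 in size, the same contrast had opposite signs in the 2 settings; with 1 array each, the difference was not tested. The 8Br-cAMP difference was negative after siNC and positive after siYT for MCM2 (difference of differences 1.58), DBF4 (1.71), DNMT1 (1.34) and DUT (1.09). For DUT the siRNA difference was also negative without and positive with 8Br-cAMP, which gives the same 1.09. The positive differences were small, between 0.03 for DNMT1 and 0.38 for MCM2. For MCM2, DBF4 and DNMT1 the values on both siYT arrays lay under the negative control percentiles.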

How the results depend on the processing

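No paired analysis was possible because no group had a replicate, and no array could be left out. Counts of called members were not remade for the alternative that set values to their array's negative control percentile. Under the others, counts lower for siYT without 8Br-cAMP, with it and in both media stayed within 1.5 times of 35, 32 and 31. The exception was 20 in both media at the 4-fold threshold. By name, 24 of the 31 were called in both media under every counted alternative but that threshold. As log2 bounds against those percentiles, some of the 24 were under 1 in either medium, such as ORC1 (0.38 without and 0.70 with 8Br-cAMP) and CDC45 (1.82 and 0.70). Others stayed above 1 in both, such as MCM7 (2.06 and 2.21) and RFC4 (2.60 and 2.27). The 8Br-cAMP counts depended on the settings. At the 1.5-fold threshold 29 members were lower after siNC (9.21% of all genes), 13 after siYT (9.68%) and 12 had a difference of differences past it (21.1%), the last near its background; at the 4-fold threshold these were 1, 2 and 0 (0.379%, 0.548% and 1.02% of all genes). With the filter at the negative controls' 95th percentile of 6.95, 3 members were lower after siYT (3.61% of all genes), near the background. On the scale of log2 of the linear value plus 32, the median 8Br-cAMP difference after siYT was -0.21, and limma called 0 members for the siRNA (42 at an unadjusted p under 0.05) and 0 for 8Br-cAMP (18 unadjusted); the cause was not tested. Over all genes limma called 1586 for the siRNA, of which 826 fell, and after the positive control shift 3063, of which 562 fell; for 8Br-cAMP it called 321, and 744 after cyclic loess. No called member difference changed sign under any alternative for which calls were remade. With values under the 95th percentile of their array's negative controls set to it, an alternative chosen after seeing the data, the median siRNA differences were -0.98 and -0.51; signal over background limits these sizes.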

Other observations

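Polymerases and factors outside the replication fork were measured beside the members. Of 8 translesion and repair polymerases, POLQ, which joins broken ends by short homologies, was the only gene called lower in both media (-1.89 and -2.77). It fell in the limma fit. POLQ was under the negative control percentile on the siYT array and on both arrays with 8Br-cAMP, where it has no bound. REV3L, the catalytic subunit of polymerase zeta, was 1.40 and 0.54 higher and POLK 0.28 and 1.54 higher without passing. Among 11 genes of mitochondrial DNA replication, TWNK, the mitochondrial helicase (-2.44 and -1.42), and TFAM, which packs mitochondrial DNA (-1.53 and -2.02), were called lower in both media. Over all genes 3.89% were. The TWNK values on both siYT arrays lay under the negative control percentiles. MGME1, a nuclease (-1.75 and -0.92), and SSBP1, the mitochondrial single-strand binding protein (-0.98 and -1.28), fell as well in the limma fit.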
